A study of Mus musculus with 12 samples.

Results

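Male germ cells taken from the testis at postnatal day 7 (P7, 2 libraries) were compared with cultured germline stem cells (GSCs) of 2 Stag3 knockout lines, KO1 and KO2 (4 libraries, 2 per line), to see whether the knockout placed cultured cells nearer to or farther from germ cells in vivo. These 6 libraries, of 12 in the series, are all the libraries of the 3 groups by their labels. The cell line of all GSCs, including the 2 wild-type (WT) libraries used as the reference, is labelled Acrosin-EGFP; beta-Actin-EGFP (AAG), so every GSC group carries EGFP reporters. The P7 cells came from Vasa-RFPTg/0 mice, so P7 and GSC groups differ in reporter alleles as well as in growth in culture or in vivo, and these cannot be told apart. The remaining 4 libraries, germ cells of Vasa-RFPTg/0 fetal testes at embryonic days 16 and 17, entered the model and are quoted only as side values. Whether each knockout line is 1 clone, which exons were deleted, how many mice gave each P7 library and how P7 cells were collected is information the labels do not give. Nothing states that libraries of a group came from separate cultures or animals, so the p-values measure the spread between these samples, which may be technical.

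Cohesin is a ring-shaped complex that holds sister chromatids together and extrudes chromatin loops, and STAG3 is the germline form of its STAG subunit, known best from meiosis. GSCs are cultured spermatogonial stem cells that grow on GDNF and FGF, the growth factors that Sertoli cells supply in the testis. At the end of the first postnatal week the mouse testis holds undifferentiated spermatogonia and the first differentiating spermatogonia, and no spermatids yet. Cells kept in GDNF resemble the stem and progenitor pool, and retinoic acid moves that pool toward KIT-positive differentiating spermatogonia.

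Levels are given in each library as RPM, reads scaled to the library's total of non-mitochondrial gene counts. The method counts reads at the 3′ ends of transcripts after amplification of 1 ng of RNA, so levels are compared between libraries and not between genes. Library totals, spike-in reads included, ran from 3230225 to 4596607 over the 8 GSC and P7 libraries and gene counts from 3040988 to 4461896, and a floor of 3 counts lay between 0.748 and 1.047 RPM. Differences are log2 fold changes ± SE from edgeR's quasi-likelihood test over 15827 genes, and a gene was called where the Benjamini-Hochberg adjusted p was below 0.05. The knockout value in a difference is the mean of the 2 lines. The RNA of fewer cells of a type and less RNA per cell cannot be told apart in these bulk samples.

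The germ cell label held in every library: the summed level of the germ cell identity genes was 4993 and 4872 RPM at P7, 4008 to 4801 RPM in the knockout libraries and 4522 and 4949 RPM in wild type. Markers of testis somatic cells were not absent at P7. The Sertoli genes Cst12, Cst9, Defb19 and Rhox8 were at 0 in all 6 GSC libraries and measured 4.28 and 14.5, 3.62 and 10.5, 2.30 and 9.89, and 4.60 and 6.49 RPM at P7, higher in the second P7 library each time. Summed erythroid markers were 12.8 and 82.5 RPM at P7 against 0 in every knockout library, and summed macrophage markers 16.8 and 20.1 RPM against 6.10 to 9.45. Summed fibroblast markers were 177 and 197 RPM at P7, 84.6 to 91.8 in the knockout libraries and 143 and 137 in wild type. Summed Sertoli markers, 370 and 411 RPM at P7 and 381 to 455 in the knockout libraries, overlapped. Among the markers tested, 9 of 17 Sertoli, 2 of 5 Leydig, 3 of 8 peritubular myoid, 5 of 11 endothelial, 2 of 5 macrophage, 7 of 13 fibroblast and 4 of 5 erythroid genes were called higher at P7 than in the knockout mean, beside 24.1% of all genes tested. Several of these counts were unstable: the endothelial count was 1 without P7 replicate 2 or with ERCC totals, 2 without P7 replicate 1 and 3 without KO2 replicate 1, and the erythroid count was 2 without P7 replicate 2. The Leydig count was 0 without P7 replicate 1 and 1 without P7 replicate 2 or any 1 knockout library. The macrophage count was 1 with ERCC totals and without either P7 library, KO1 replicate 2 or either KO2 library. Called lower at P7 were 2 Sertoli, 1 peritubular myoid, 1 endothelial and 1 fibroblast gene, beside 18.5% of all genes tested. No Leydig, macrophage or erythroid gene was called lower. The part of these cells in the differences below was not tested, and their sums are repeated where a gene group moves with them.

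The P7 tables were made with another gene list (34896 gene rows) than the GSC and fetal tables (35652 rows). Only the 31675 genes found in both and counted in every library were used, and what remains of the difference in annotation cannot be told apart from P7 itself.

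Stag3 (chromosome 5, 138272514 to 138312397, GRCm38.p6, a gene whose span overlaps Gal3st4 and Gpc2) measured 227 and 233 RPM at P7. It measured 295 and 304 RPM in KO1, 137 and 152 RPM in KO2, and 385 and 420 RPM in wild-type GSCs. P7 thus lay between the knockout lines, below KO1 and above KO2, with no overlap. The difference from the knockout mean was 0.08 ± 0.10 (edgeR adjusted p = 0.519), and scaling to the ERCC spike-in totals turned it to -0.46. P7 was lower than wild-type GSCs by -0.94 ± 0.11 (adjusted p = 9.41e-09). Since the method counts 3′ ends and the deleted part is not given, the RNA level does not check the knockout.

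Across all genes, the knockout GSCs lay farther from P7 than the wild-type GSCs did. The distance of a library was taken as the root mean square, over 15827 genes, of its log2(CPM + 1) difference from the P7 mean. It was 0.913 and 0.892 in wild type, 1.004 and 1.011 in KO1 and 1.017 and 1.025 in KO2. All 4 knockout libraries lay beyond both wild-type libraries, a gap of 0.111 between the means. The exact two-sided permutation test gave p = 0.133, the smallest value its 15 splits allow, so the design cannot reach 0.05. Distances between replicates of a group were 0.39 in KO2, 0.423 in KO1, 0.432 in wild type and 0.453 at P7. Knockout and wild-type libraries lay 0.558 to 0.6 apart, and KO1 and KO2 libraries 0.445 to 0.461 apart.

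**Figure D1:**
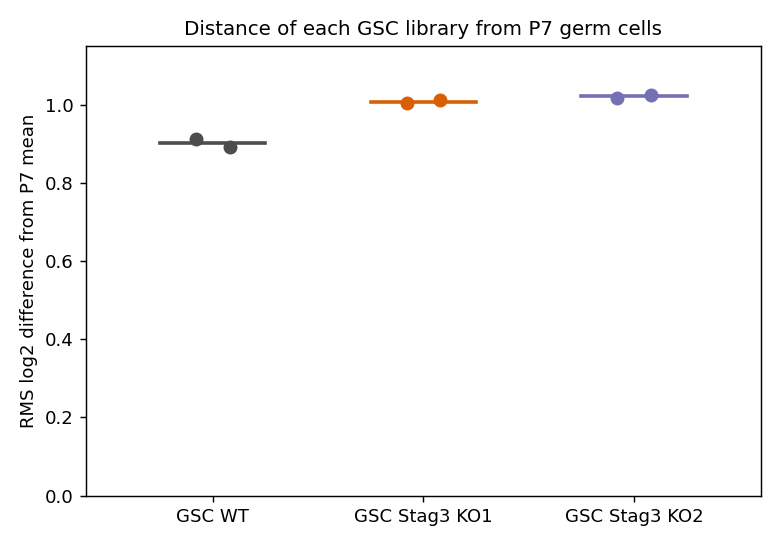
Distance of each GSC library from the mean of the 2 P7 libraries, as the root mean square log2(CPM + 1) difference over 15827 genes (vertical axis, log2 units, from 0). Points are libraries and bars are group means; the wild-type libraries sit at 0.913 and 0.892 and the 4 knockout libraries between 1.004 and 1.025.

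More genes separated P7 from either knockout line than from wild type, but with ERCC totals this held for KO2 only. P7 against the knockout mean called 6734 genes, 42.5% of those tested, 3807 higher (24.1%) and 2927 lower (18.5%) at P7. That contrast has 4 libraries on its knockout side, so the 2-against-2 contrasts are the ones to set beside wild type. P7 against KO1 called 5599 genes (35.4%, with 19.7% higher and 15.7% lower) and P7 against KO2 called 5826 (36.8%, with 19.9% higher and 16.9% lower). P7 against wild type called 4909 (31.0%, with 16% higher and 15% lower). With ERCC totals the counts were 5411 against KO1, 6667 against KO2 and 5618 against wild type. All of these contrasts share the P7 libraries. The balance of rises and falls depended on the scaling: 56.5% of the genes called against the knockout mean were higher at P7 as reported, 61.6% with library totals, and 22.8% with ERCC totals, which shifted the median over all genes by -0.46. Against KO1 the share was 55.6% and became 23.3% with ERCC totals, against KO2 54.0% and 17.9%, and against wild type 51.7% and 16.2%, or 65.0% with library totals. ERCC reads made up 5.851% and 4.69% of the P7 libraries and 2.798% to 3.408% of the GSC libraries, and differences below are relative to the TMM scale unless the ERCC value is given.

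Between knockout and wild-type GSCs, 1421 genes were called (8.98%), 448 higher (2.83%) and 973 lower (6.15%) in the knockout. The share higher was 31.5%, and 46.0% with library totals. The count rested on the wild-type pair: with replicates numbered by the sample titles, it was 608 without wild-type replicate 1, 763 without wild-type replicate 2 and 926 without KO1 replicate 2. For any gene, this contrast is the test of whether its gap to P7 differs between knockout and wild type. Since every one of these contrasts shares libraries with another, the values are given side by side. The knockout lines may differ from the wild-type GSCs in more than Stag3, and this cannot be told apart from genotype. Words such as moved, rose or fell describe a difference from wild type.

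Genes that the knockout moved in the direction of P7 were chosen as those called in both knockout and P7 against wild type with the same sign, so both of those contrasts are a description for them. The 10 largest were T, Tmem132e, Lhx1, Tcl1, Adgrl2, Clu and Dusp6, which were higher in the knockout, and Sfi1, Col3a1 and Kit, which were lower. Several belong to the GDNF and FGF program of stem spermatogonia. The gap that remained between P7 and the knockout differed widely among them.

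Lhx1 (chromosome 11, 84517975 to 84525534), a GDNF-induced homeobox gene of stem spermatogonia, measured 4.08 and 2.74 RPM in wild type. It measured 15 and 13.3 RPM in KO1, 15.1 and 16.1 RPM in KO2, and 48.3 and 64.3 RPM at P7. The knockout rise of 2.05 ± 0.34 (edgeR adjusted p = 4.32e-05) left P7 1.86 ± 0.23 above the knockout mean (adjusted p = 1.43e-08). T, the brachyury transcription factor gene (chromosome 17, 8434423 to 8442496), followed the same order. It measured 0 and 0.748 RPM in wild type, 3.53 to 9.18 RPM over the 4 knockout libraries and 24.7 and 19.8 RPM at P7. P7 remained 1.89 ± 0.28 above the knockout mean (adjusted p = 7.74e-07), and its ratio to wild type, 56.7 with a counting interval of 19 to 278, rests on 3 wild-type counts. Clu also kept a gap, with 5.55 to 7.36 RPM in the knockout and 23.0 and 41.4 RPM at P7. Clu, which encodes the secreted chaperone clusterin, is itself a Sertoli marker, and its change between knockout and wild type was lost without wild-type replicate 2.

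Tcl1 (chromosome 12, 105216753 to 105222737), which encodes an AKT coactivator, came near the P7 level in the knockout. It measured 21.5 and 20.9 RPM in wild type, 89.1 to 96.3 RPM in the knockout and 109 and 113 RPM at P7. The libraries did not overlap, but the difference between P7 and the knockout mean, 0.22 ± 0.14, was not called (adjusted p = 0.21). Tmem132e, encoding a transmembrane protein, measured 7.90 and 5.98 RPM in wild type, 29.4 to 35.6 RPM in the knockout and 27.3 and 25 RPM at P7 (-0.36 ± 0.24, adjusted p = 0.235). Sfi1, a centrosome protein gene, was the mirror image. It measured 40.0 and 38.6 RPM in wild type, 9.71 to 16.8 RPM in the knockout and 16.8 and 18.2 RPM at P7 (0.46 ± 0.21, adjusted p = 0.0718).

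Adgrl2 and Dusp6 passed beyond the P7 level. Adgrl2, an adhesion G-protein-coupled receptor gene, measured 22.6 and 29.7 RPM in wild type, 92.1 to 127 RPM in the knockout and 56.6 and 53.2 RPM at P7. P7 was lower than the knockout mean by -1.09 ± 0.15 (adjusted p = 1.59e-07) and higher than wild type by 0.93 ± 0.18. Dusp6 (chromosome 10, 99263231 to 99267489), an ERK phosphatase gene induced by ERK signalling, measured 24.2 and 31.6 RPM in wild type, 90.6 to 123 RPM in the knockout and 80.9 and 73.9 RPM at P7. P7 lay 0.56 below the knockout mean, at -0.56 ± 0.15 (adjusted p = 0.002), and all 4 knockout libraries were above both P7 libraries. Col3a1, a fibrillar collagen gene, measured 29.1 and 37.4 RPM in wild type, 6.10 to 15.6 RPM in the knockout and 22 and 22.3 RPM at P7, so the knockout fell past P7. Its P7 difference from the knockout mean was 1.00 ± 0.22, and 0.44 and not called with ERCC totals. Col3a1 is also a fibroblast marker. The sum of that list was likewise lowest in the knockout, but it was higher at P7 than in wild type. The part of fibroblast RNA was not tested.

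Kit (chromosome 5, 75574987 to 75656722), the receptor that marks differentiating spermatogonia, varied within wild type and between the knockout lines. It measured 42.2 and 82.0 RPM in wild type, 30 and 31.4 RPM in KO1, 14.6 and 11.1 RPM in KO2 and 24 and 29.7 RPM at P7. P7 sat between the lines, just below KO1 and above KO2, and its difference from the knockout mean was 0.38 ± 0.22 (adjusted p = 0.17).

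**Figure D2:**
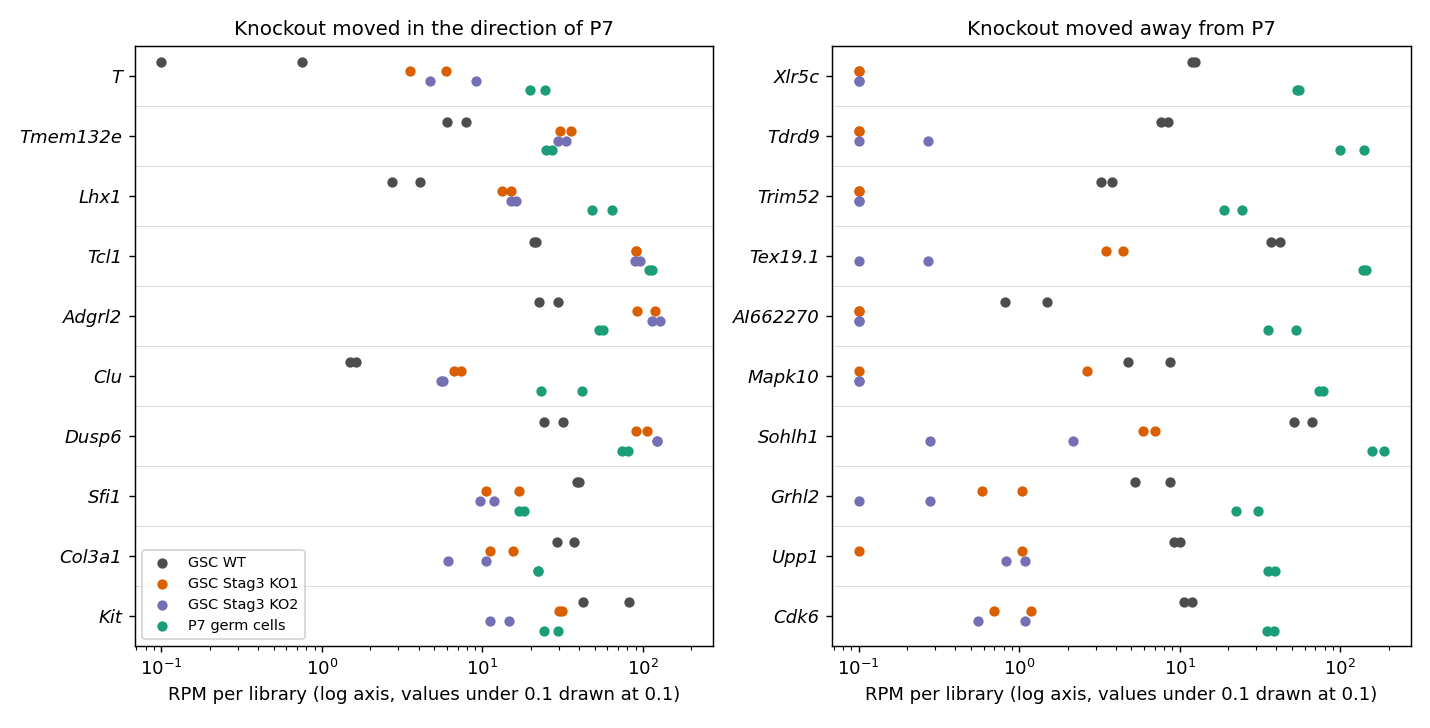
RPM in each GSC and P7 library (log axis, values under 0.1 RPM drawn at 0.1) for the 10 genes that the knockout moved in the direction of P7 and the 10 that it moved away. Points are libraries; at left the P7 points of Tcl1 (109 and 113 RPM) sit beside the knockout points, and at right the P7 points of every gene sit above the wild-type points while the knockout points sit below them.

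The GDNF and FGF response list, target genes and feedback regulators of these 2 pathways, showed the largest list-wide move of the knockout in the direction of P7 of all lists tested, by its median. Of its 24 tested members, 12 were higher and 2 lower in the knockout than in wild type, with a median of 1.07 beside -0.00 over all genes. The shares over all genes were 2.83% and 6.15% there, and 24.1% and 18.5% in P7 against the knockout mean. P7 against wild type called 14 higher and 3 lower with a median of 1.24 beside 0.03. Over all genes that contrast called 16% higher and 15% lower. P7 against the knockout mean called 9 higher and 9 lower, with a median of 0.03 beside 0.07 over all genes, so the list was not shifted one way, although single members differed strongly. With ERCC totals it became 6 higher and 10 lower, with a median of -0.51.

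Members of that list fell on both sides of P7. The transcription factor Etv5, a GDNF target needed to maintain the stem pool, measured 61.5 and 52.8 RPM in wild type, 158 to 195 RPM in the knockout and 155 and 134 RPM at P7. P7 lay -0.39 ± 0.12 from the knockout mean (edgeR adjusted p = 0.00752), a call that was lost without KO1 replicate 1 (-0.33) or without P7 replicate 2 (-0.34). Its relative Etv4 rose in the knockout and was not called at P7 against wild type. Etv4 measured 16.3 and 11.2 RPM in wild type, 42.2 to 52.1 RPM in the knockout and 12.8 and 19.2 RPM at P7, overlapping wild type. P7 was -1.58 ± 0.23 from the knockout mean (adjusted p = 6.04e-07) and 0.10 from wild type (adjusted p = 0.86). Epha2, an ephrin receptor gene, had the same order, at 4.90 and 8.72 RPM in wild type, 32.7 to 44.7 RPM in the knockout and 10.2 and 10.5 RPM at P7 (-1.96 ± 0.26 from the knockout mean). Junb, an immediate early AP-1 gene, measured 8.17 and 7.23 RPM in wild type, 25.1 to 38.6 RPM in the knockout and 3.62 and 1.55 RPM at P7. Here the knockout rose by 2.0 ± 0.29 while P7 was below wild type by -1.70 ± 0.46. On the other side, the ERK phosphatase gene Dusp5 measured 0.294 and 1.4 RPM in KO1, 0.27 and 0 RPM in KO2, 0 in both wild-type libraries and 29.3 and 30 RPM at P7. Its gap of 6.2 ± 0.55 was wider than those of the members above, and no GSC group approached the P7 level. For Dusp5 too, the other gene list used at P7 cannot be told apart from P7 itself.

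The undifferentiated spermatogonia list was higher at P7 than in either GSC genotype. Of 34 tested members, 21 were higher and 3 lower at P7 than in the knockout mean, with a median of 1.23, and 23 were higher and 1 lower than in wild type, with a median of 0.98. With ERCC totals the counts against the knockout were 18 higher and 7 lower, with a median of 0.67. The medians against KO1 and KO2 were 1.21 and 1.29. The knockout itself moved members both ways, with 9 higher and 11 lower than in wild type and a median of -0.07. Over all genes, 24.1% were higher and 18.5% lower at P7 than in the knockout mean. For knockout against wild type those shares were 2.83% and 6.15%, and for P7 against wild type 16% and 15%. The list was written with earlier results of these data known and is no independent evidence of direction.

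Some genes of undifferentiated spermatogonia, progenitor genes among them, were near the P7 level in wild-type GSCs and fell in the knockout. Sox3, a transcription factor of progenitor spermatogonia, measured 90.7 and 72.5 RPM in wild type, 8.60 to 13.2 RPM in the knockout and 86.5 and 72.6 RPM at P7. P7 was 2.74 ± 0.20 above the knockout mean (edgeR adjusted p = 3.47e-14), and its difference from wild type, -0.17, was not called (adjusted p = 0.555). The immediate early factor Egr4 measured 404 and 257 RPM in wild type, 115 to 146 RPM in the knockout and 469 and 432 RPM at P7 (1.73 ± 0.11 above the knockout mean, and 0.31 from wild type with adjusted p = 0.0638). Nanos3, an RNA-binding regulator of progenitors, measured 66.7 and 50.1 RPM in wild type, 23.2 to 28.3 RPM in the knockout and 47.7 and 62.1 RPM at P7. The P7 and wild-type values of Nanos3 overlapped, and the gap to the knockout mean was 1.08 ± 0.20, or 0.55 and not called with ERCC totals. Rarg, the retinoic acid receptor of progenitors, had the same order at a lower level, with 1.4 to 3.05 RPM in the knockout and 8.88 and 9.58 RPM at P7.

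Other members were higher at P7 than in wild type and lower still in the knockout. Zbtb16, the PLZF gene needed for stem cell maintenance, measured 100 and 103 RPM in wild type, 49.9 to 65.1 RPM in the knockout and 169 and 146 RPM at P7. Sall4, a zinc finger factor of undifferentiated spermatogonia, measured 127 and 135 RPM in wild type, 63.3 to 82.4 RPM in the knockout and 283 and 248 RPM at P7. The gap to P7 was 1.74 ± 0.12 from the knockout mean and 0.89 from wild type. Id4, an inhibitor of helix-loop-helix factors found in stem spermatogonia, measured 32.1 and 44.6 RPM in wild type, 25 to 29.0 RPM in the knockout and 155 and 117 RPM at P7. P7 was 2.28 ± 0.16 above the knockout mean for Id4, and its knockout difference of -0.60 from wild type was not called in 7 of the 8 analyses that left out 1 library (-0.35 without wild-type replicate 2).

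A further group differed from P7 in both genotypes with no call between them. Neurog3, a helix-loop-helix gene of progenitors that leave the stem state, measured 1.63 and 2.49 RPM in wild type, 1.77 to 4.19 RPM in the knockout and 42.4 and 42.3 RPM at P7 (3.83 above the knockout mean). Cdh1, E-cadherin, measured 5.99 and 3.74 RPM in wild type, 2.43 to 4.19 RPM in the knockout and 50.3 and 61.2 RPM at P7 (4.01 above the knockout mean). The fall at P7 of Ddit4, a stress-induced inhibitor of mTORC1, was -1.78 against the knockout mean and -2.35 against wild type. By contrast Gfra1, the GDNF co-receptor, measured 139 and 124 RPM in wild type, 154 to 167 RPM in the knockout and 186 and 158 RPM at P7. Its difference from the knockout mean was 0.04 (adjusted p = 0.828), and -0.52 with ERCC totals. Its partner Ret, the signalling receptor, rose at P7 by 0.52 ± 0.11 from 138 to 166 RPM in the knockout to 219 and 235 RPM, a difference that was -0.03 with ERCC totals. The forkhead gene Foxc2, which marks a quiescent stem cell subset, measured 60.3 to 67.4 RPM in the knockout and 125 and 110 RPM at P7 (0.84 ± 0.14, and 0.28 and not called with ERCC totals).

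**Figure D3:**
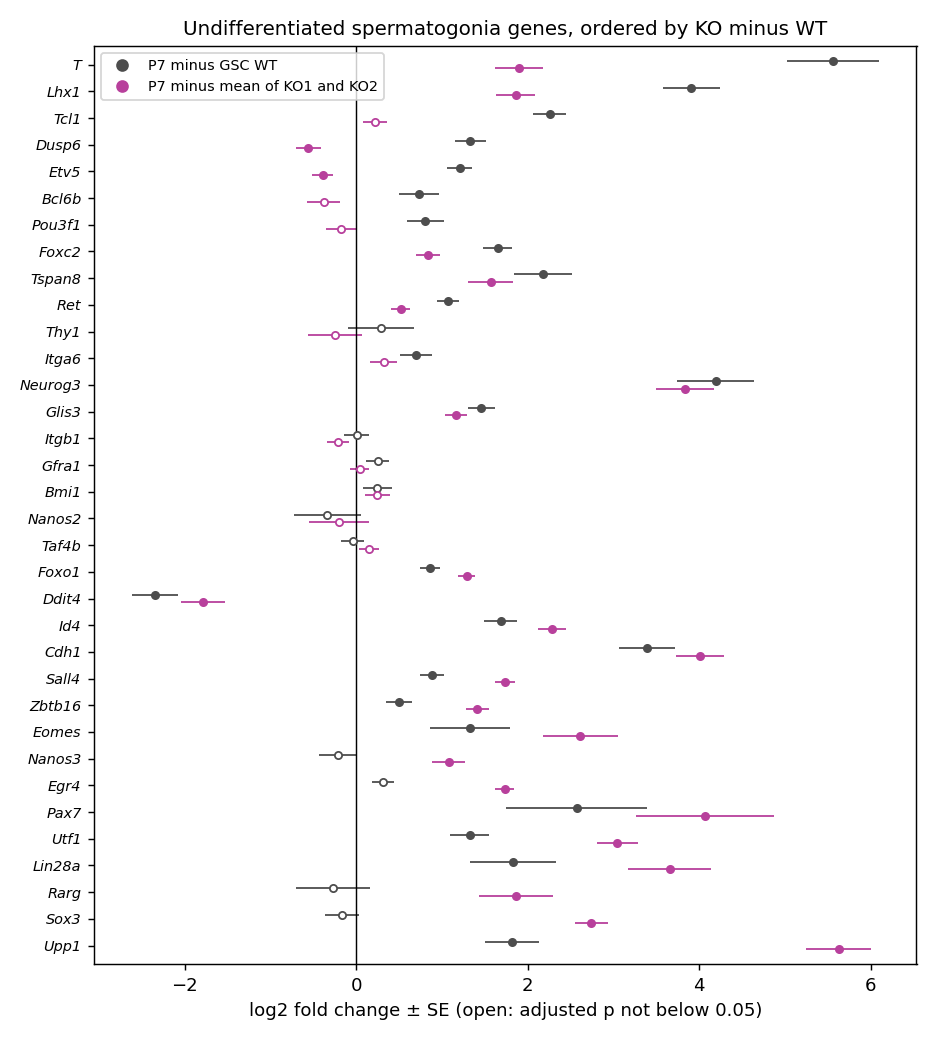
Log2 fold change ± SE (horizontal axis) of each tested member of the undifferentiated spermatogonia list for P7 against wild-type GSCs and against the knockout mean, ordered by the knockout difference from wild type. Filled points were called; Sox3 sits at 2.74 against the knockout and -0.17 against wild type, and Etv5 at -0.39 and 1.21.

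Genes that the knockout moved away from P7 were chosen by the opposite sign in the same 2 contrasts. Both contrasts, and the P7 difference from the knockout that follows from them, are thus a description for these genes. All 10 of the largest were higher at P7 than in wild type and lowest in the knockout. They were Xlr5c, Tdrd9, Trim52, Tex19.1, AI662270, Mapk10, Sohlh1, Grhl2, Upp1 and Cdk6, several of them germline-restricted genes. Promoter sequences are shown for the 3 of these genes whose 250 bases before a RefSeq start hold CACGTG, the core E-box letters, in capitals (mouse GRCm38.p6, RefSeq, 5′ to 3′ on the gene's strand). They are Sohlh1 at chr2:25847249-25847498 on the minus strand, Tdrd9 at chr12:111971309-111971558 on the plus strand and Cdk6 at chr5:3343643-3343892 on the plus strand.
Sohlh1: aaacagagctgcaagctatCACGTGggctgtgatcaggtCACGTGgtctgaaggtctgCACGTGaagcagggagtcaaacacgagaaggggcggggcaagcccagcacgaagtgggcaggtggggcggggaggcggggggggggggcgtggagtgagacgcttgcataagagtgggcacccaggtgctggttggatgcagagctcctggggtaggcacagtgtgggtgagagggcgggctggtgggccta
Tdrd9: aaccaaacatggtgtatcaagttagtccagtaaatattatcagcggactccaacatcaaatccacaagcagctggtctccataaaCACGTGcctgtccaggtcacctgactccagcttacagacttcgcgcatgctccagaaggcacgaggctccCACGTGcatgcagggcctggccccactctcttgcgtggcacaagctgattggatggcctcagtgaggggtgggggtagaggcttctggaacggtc
Cdk6: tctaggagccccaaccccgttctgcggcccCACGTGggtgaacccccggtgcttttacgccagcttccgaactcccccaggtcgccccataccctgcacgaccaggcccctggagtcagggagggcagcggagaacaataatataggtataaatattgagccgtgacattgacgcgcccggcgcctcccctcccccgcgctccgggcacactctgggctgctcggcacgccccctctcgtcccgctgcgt
The Sohlh1 window holds 3 matches, the Tdrd9 window 2 and the Cdk6 window 1. CACGTG reads the same on both strands, and 6.02% of 32851 windows of this length hold it. Of the genes moved away, 8 of 10 had a window in the table, 11 windows in all, and 3 windows held the letters. Of the genes moved in the direction of P7, 8 of 10 had a window, 9 windows in all, and 1 held them, that of Tmem132e. Neither TTTCCCGC (0.895% of all windows) nor TTCCCGCC (1.86%), searched on both strands and overlapping in their letters, was in a window of either set. CpG counts per window had a median of 8 for the genes moved away (1 to 22), 16 for the others (0 to 28) and 6 over all windows. A match is a description of the letters and not a binding site.

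Sohlh1 (chromosome 2, 25842995 to 25847248), a helix-loop-helix factor needed for spermatogonial differentiation, measured 66.4 and 51.3 RPM in wild type. It measured 5.89 and 6.98 RPM in KO1, 2.16 and 0.277 RPM in KO2, and 158 and 188 RPM at P7. P7 was 5.86 ± 0.19 above the knockout mean and 1.42 ± 0.15 above wild type. The knockout differed from wild type by -4.43 ± 0.22, away from P7. The partner gene Sohlh2 went the other way, at 181 and 190 RPM in wild type, 196 to 221 RPM in the knockout and 43.1 and 66.1 RPM at P7 (-2.0 ± 0.14 from the knockout mean).

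Tex19.1 (chromosome 11, 121146143 to 121148314), a germline gene that restrains retrotransposons, measured 36.8 and 42.1 RPM in wild type, 4.41 and 3.49 RPM in KO1, 0.27 and 0 RPM in KO2 and 138 and 145 RPM at P7. Its gap widened from 1.71 ± 0.19 against wild type to 7.32 ± 0.28 against the knockout mean. Tdrd9 (chromosome 12, 111971488 to 112068854), a helicase of the piRNA pathway, measured 7.62 and 8.47 RPM in wild type, 0.27 RPM in KO2 replicate 1, 0 in the other 3 knockout libraries and 140 and 99.2 RPM at P7. The knockout value rests on 1 count, and the ratio of P7 to the knockout was 1620 with a counting interval of 289 to 64000. P7 exceeded wild type by 3.75 ± 0.18 for Tdrd9, and the fetal libraries were higher again, at 756 to 831 RPM. Xlr5c, an X-linked gene of the Xlr family whose near-identical copies make its counts uncertain (chromosome X, 73283361 to 73293863), was at 0 in all 4 knockout libraries, 12.5 and 12 RPM in wild type and 55.2 and 54.1 RPM at P7. P7 was at least 61.2-fold higher and wild type at least 13.7-fold higher than the knockout for Xlr5c, taking 3 counts in each knockout library as the floor.

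The rest of the genes moved away had wild type between P7 and the knockout by the way they were chosen. Cdk6 (chromosome 5, 3341004 to 3531008), a G1 cyclin-dependent kinase gene, measured 10.6 and 12 RPM in wild type, 0.555 to 1.2 RPM in the knockout and 38.8 and 34.9 RPM at P7 (5.25 ± 0.35 above the knockout mean). Mapk10, the JNK3 kinase gene, measured 8.71 and 4.74 RPM in wild type, 0 to 2.65 RPM in the knockout and 78.3 and 73.3 RPM at P7. Upp1, a uridine phosphorylase gene that marks undifferentiated spermatogonia, and Grhl2, an epithelial transcription factor gene, had P7 levels of 35.5 and 38.9 RPM and of 30.6 and 22.3 RPM, and knockout levels of 0 to 1.08 RPM and of 0 to 1.05 RPM. For AI662270, at 0 in the knockout, P7 was at least 49.6-fold higher, and its fall from 0.817 and 1.5 RPM in wild type was not called without wild-type replicate 2. For Trim52, also at 0 in the knockout, P7 was at least 24.2-fold higher and wild type at least 3.95-fold higher.

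The piRNA pathway, which silences transposons in male germ cells, was higher at P7 and lower in the knockout than in wild type. Of 28 tested members 21 were higher and 1 lower at P7 than in the knockout mean, with a median of 0.92, and 14 higher and 1 lower than in wild type, with a median of 0.44. With ERCC totals 12 were higher and 2 lower against the knockout, with a median of 0.37. The knockout was lower than wild type for 16 members and higher for 0, with a median of -0.42. That count was 9 without wild-type replicate 2, 10 without KO1 replicate 2 and 8 with ERCC totals. Over all genes, 24.1% were higher and 18.5% lower at P7 against the knockout mean, with 6.15% lower in knockout than wild type. For P7 against wild type the shares were 16% higher and 15% lower. Spocd1, which links piRNAs to DNA methylation, measured 12.3 and 12.7 RPM in wild type, 2.1 to 5.55 RPM in the knockout and 34.2 and 32.8 RPM at P7 (3.08 ± 0.19 above the knockout mean). Btbd18, a nuclear factor for piRNA precursor transcription, differed at P7 with no fall in the knockout, at 8.44 and 11.5 RPM in wild type, 8.37 to 20.3 RPM in the knockout and 61.2 and 72.6 RPM at P7. Tdrkh, a mitochondrial piRNA processing factor, was the member lower at P7, by -0.87.

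Germ cell identity genes were mixed. Of 15 tested, 7 were higher and 5 lower at P7 than in the knockout mean, with a median of 0.22 (2 and 6, with -0.34, on ERCC totals), and 5 were higher and 5 lower than in wild type. Of all genes, 16% were higher and 15% lower at P7 than in wild type. The knockout was lower than wild type for 9 and higher for 0, with a median of -0.38, and lower for 4 without wild-type replicate 2 or KO1 replicate 2 and for 2 with ERCC totals. Beside these stand 24.1% higher and 18.5% lower at P7 than in the knockout mean over all genes. The share lower in the knockout than in wild type was 6.15%. Mael, a piRNA factor, measured 567 and 579 RPM in wild type, 460 to 530 RPM in the knockout and 900 and 831 RPM at P7, a difference of 0.76 from the knockout mean that was 0.21 and not called with ERCC totals. Tex101, Dppa5a and Dnd1 were lower at P7 than in the knockout mean, by -0.97, -0.64 and -0.51.

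Pluripotency and early germ cell genes were higher at P7, with 9 of 19 higher and 2 lower than in the knockout mean and a median of 0.94 (6 and 4, with 0.38, on ERCC totals). The knockout was lower than wild type for 6 and higher for 1, with a median of -0.55, and lower for 3 without wild-type replicate 1. Among all genes, 24.1% were higher and 18.5% lower at P7 against the knockout mean, with 6.15% lower in knockout than wild type. Pou5f1, the OCT4 gene that spermatogonia retain at low levels, measured 5.45 and 5.23 RPM in wild type, 0.294 to 0.832 RPM in the knockout and 29.9 and 24.1 RPM at P7. P7 was 5.66 ± 0.34 above the knockout mean and 2.20 ± 0.27 above wild type, so the order of the genes moved away held here too.

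Differentiating spermatogonia genes did not shift one way between P7 and the knockout. Of 15 tested, 7 were higher and 5 lower at P7 than in the knockout mean, with a median of 0.31, and the median was -0.24 against KO1 and 0.37 against KO2. With ERCC totals 5 were higher and 7 lower, with a median of -0.24. Against wild type 6 were higher and 8 lower at P7, with a median of -0.39. The knockout was lower than wild type for 9 and higher for 1, with a median of -0.65. All genes tested gave 24.1% higher and 18.5% lower at P7 against the knockout mean, and 6.15% lower in knockout than wild type. For P7 against wild type they gave 16% higher and 15% lower. Stra8, the retinoic acid-induced gene of meiotic entry, measured 205 and 203 RPM in wild type, 201 and 208 RPM in KO1, 144 and 149 RPM in KO2 and 83.2 and 92.4 RPM at P7 (-1.04 ± 0.13 from the knockout mean). Rhox13, an X-linked homeobox gene of spermatogonia, measured 133 and 129 RPM in wild type, 145 to 168 RPM in the knockout and 32.9 and 40.5 RPM at P7 (-2.14 ± 0.14). Both were lowest at P7. Tex15, a nuclear piRNA and recombination factor, was highest there, at 161 and 165 RPM in wild type, 95.6 to 133 RPM in the knockout and 398 and 409 RPM at P7 (1.77 ± 0.09). Uchl1, a deubiquitinase of spermatogonia, measured 805 and 778 RPM in wild type, 321 to 397 RPM in the knockout and 1113 and 1299 RPM at P7 (1.74 ± 0.08).

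Dmrt1, a transcription factor that maintains male identity in germ and Sertoli cells, lay between the genotypes at P7. It measured 568 and 572 RPM in wild type, 338 to 391 RPM in the knockout and 463 and 488 RPM at P7. The difference from the knockout mean was 0.31, lost without KO1 replicate 2 or P7 replicate 2 and turned to -0.24 with ERCC totals. Cyclin D2, Ccnd2, measured 208 and 203 RPM in wild type, 301 to 325 RPM in the knockout and 200 and 214 RPM at P7. It rose in the knockout to a level that P7 did not have.

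Meiotic prophase genes were split evenly, with 11 of 37 higher and 11 lower at P7 than in the knockout mean and a median of -0.11 (5 and 17, with -0.63, on ERCC totals). The lower count was 7 without P7 replicate 2. Of all genes tested, 24.1% were higher and 18.5% lower at P7. Hsf2bp, a cofactor of BRCA2 in meiotic recombination, measured 27.0 and 27.7 RPM in wild type, 2.16 to 3.84 RPM in the knockout and 32.9 and 39.6 RPM at P7. P7 was 3.58 ± 0.26 above the knockout mean (edgeR adjusted p = 2.74e-14), and its 0.28 above wild type was not called (adjusted p = 0.382). Meioc, which sustains meiotic prophase, went the other way, at 41.7 and 44.1 RPM in wild type, 62.9 to 73.0 RPM in the knockout and 16.4 and 18.2 RPM at P7 (-2.0 ± 0.18).

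Within cohesin, the meiotic subunit genes Smc1b and Rec8 were lower at P7 than in GSCs, while Stag3 lay between the knockout lines. Smc1b, the meiotic SMC1, measured 295 and 294 RPM in wild type, 358 to 405 RPM in the knockout and 118 and 145 RPM at P7 (-1.58 ± 0.10 from the knockout mean, edgeR adjusted p = 3.97e-15). Its knockout rise of 0.29 ± 0.10 (adjusted p = 0.0463) was lost in 6 of the 8 analyses that left out 1 library. Rec8, the meiotic kleisin, measured 103 and 93.4 RPM in wild type, 95 to 103 RPM in the knockout and 31.6 and 48.2 RPM at P7 (-1.36 ± 0.15). The mitotic kleisin Rad21 measured 524 and 595 RPM in wild type, 508 to 563 RPM in the knockout and 658 and 584 RPM at P7, a difference from the knockout mean of 0.13 that was not called (adjusted p = 0.21) and was -0.43 with ERCC totals. Smc3, Stag1 and Stag2 were not called either, at 0.15, 0.16 and -0.16. Wapl, the release factor, was 0.62 higher at P7 (0.06 with ERCC totals), and Pds5a, its partner, was lower by -0.82. In all, 4 of 21 tested cohesin genes were higher and 5 lower at P7, with a median of -0.03 (0 and 10, with -0.58, on ERCC totals). Called in either direction were 42.9% of these genes and 42.5% of all genes tested, so the list did not stand out.

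Condensin, which compacts mitotic chromosomes, was lower at P7, with 6 of 8 subunit genes lower and 1 higher and a median of -0.63. Of all genes tested, 18.5% were lower and 24.1% higher. Smc4 measured 260 and 338 RPM in wild type, 421 to 488 RPM in the knockout and 269 and 270 RPM at P7. P7 was -0.82 from the knockout mean, and -0.28 from wild type, which was not called (adjusted p = 0.051). The knockout rise of 0.53 was lost without wild-type replicate 1. Ncapd3, of condensin II, was the member higher at P7, by 0.70, or 0.14 and not called with ERCC totals, on which the list had 0 higher and 7 lower.

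Several housekeeping groups were lower at P7 than in the knockout and in wild type alike. Oxidative phosphorylation genes were lower for 69 of 83 and higher for 1, with a median of -0.54, and against wild type lower for 63 and higher for 0, with a median of -0.54. Ndufa1, a complex I subunit gene, measured 124 and 124 RPM in wild type, 135 to 154 RPM in the knockout and 38.1 and 40.8 RPM at P7 (-1.93 ± 0.16 from the knockout mean). Cytoplasmic ribosomal protein genes, whose counts are shared with many pseudogenes and so uncertain, were lower for 42 of 84 and higher for 13, with a median of -0.18. Heat shock genes were lower for 8 of 12 and higher for 0, among them the mitochondrial chaperonin gene Hspd1, with 753 to 908 RPM in the knockout and 416 and 425 RPM at P7. Cell cycle genes were lower for 18 of 31 and higher for 3, with a median of -0.33, including Cdk2 at -1.64, Ccnd3 at -1.32 and Top2a at -0.98. These counts stand beside the 18.5% of all genes that were lower at P7 than in the knockout mean. Against wild type that share was 15%. All of these falls were larger with ERCC totals.

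Adhesion and cytoskeleton genes known from cultured cells were lower at P7 for 15 of 22 and higher for 0, with a median of -1.23, and against wild type lower for 10 and higher for 0, with a median of -1.2. S100a6, a calcium-binding protein gene of proliferating cells, measured 62.9 and 43.6 RPM in wild type, 75.6 and 71.9 RPM in KO1, 37.3 and 34.4 RPM in KO2 and 6.58 and 3.40 RPM at P7. Hox genes, which pattern the body axis, were lower for 8 of 22 and higher for 2. Over all genes, 18.5% were lower and 24.1% higher at P7 than in the knockout mean. Against wild type those shares were 15% and 16%. Hoxb7 measured 75.1 and 63.8 RPM in wild type, 71.2 to 94.0 RPM in the knockout and 12.8 and 5.26 RPM at P7 (-3.23 against the knockout mean, edgeR adjusted p = 2.18e-13). GSCs of both genotypes thus held Hoxb7 RNA that was low at P7.

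**Figure D4:**
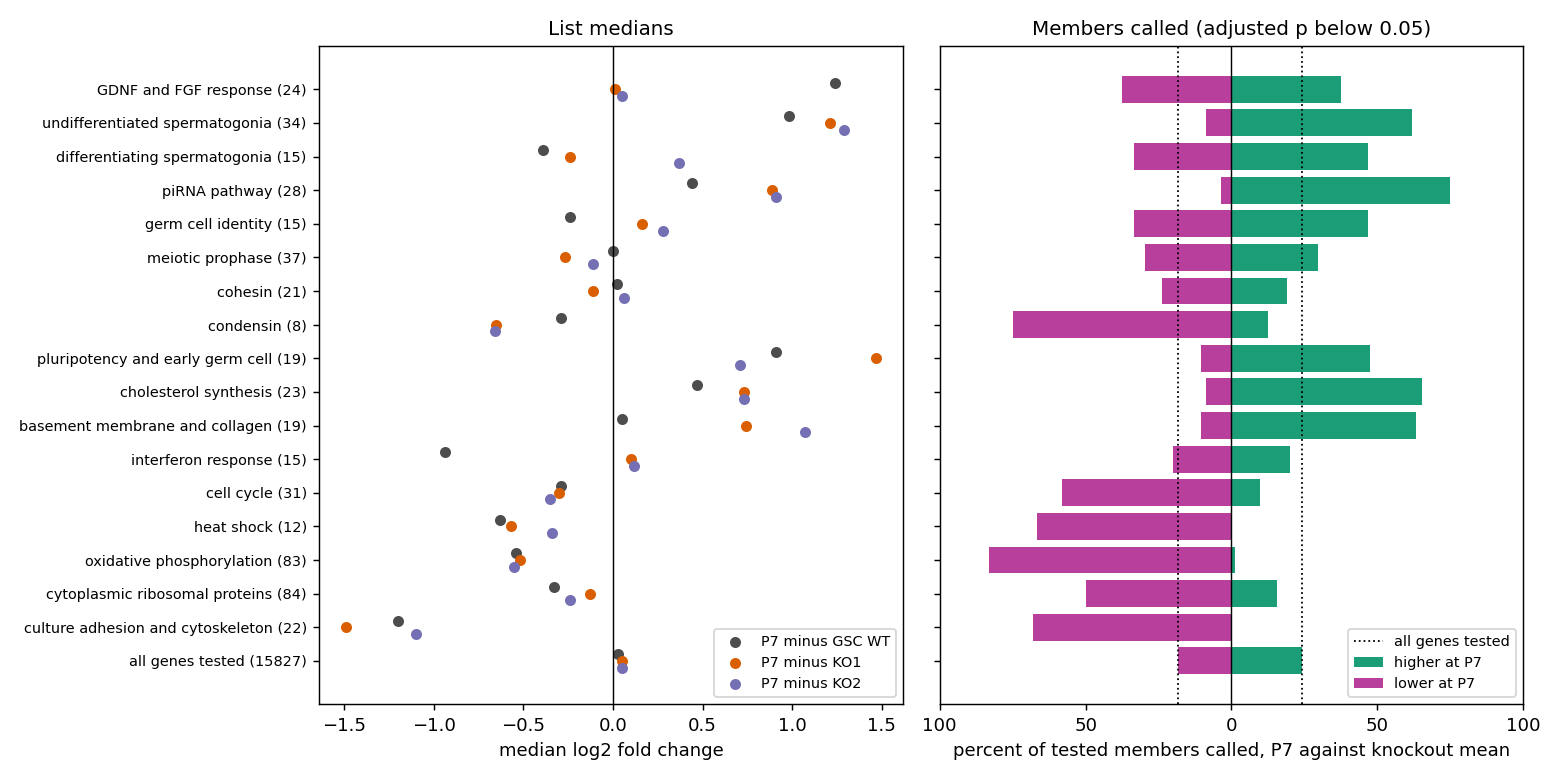
Left, median log2 fold change of each gene list for P7 against wild-type GSCs, KO1 and KO2; right, percent of its tested members (number in brackets) called higher or lower at P7 than in the knockout mean. Dotted lines mark the 24.1% higher and 18.5% lower over all 15827 genes; the GDNF and FGF list has a median of 1.24 against wild type and lies near 0 against both knockout lines.

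Basement membrane and collagen genes differed between P7 and the knockout more than between P7 and wild type. Of 19 tested, 12 were higher and 2 lower at P7 than in the knockout mean, with a median of 1.0 (6 and 5, with 0.44, on ERCC totals), and 5 were higher and 2 lower than in wild type, with a median of 0.05. Of all genes, 16% were higher and 15% lower at P7 than in wild type. The knockout was lower than wild type for 8 and higher for 0, and lower for 5 without either wild-type library. Among all genes, 24.1% were higher and 18.5% lower at P7 against the knockout mean, with 6.15% lower in knockout than wild type. Col4a2, a basement membrane collagen gene, measured 9.26 and 7.48 RPM in wild type, 1.39 to 3.83 RPM in the knockout and 8.55 and 9.89 RPM at P7 (1.78 ± 0.36 above the knockout mean). Fibroblast and feeder markers moved with this list: 7 of 13 were higher and 1 lower at P7 than in the knockout mean, with a median of 1.0, and 6 were lower in the knockout than in wild type (3 without KO2 replicate 2). Col1a1, a defining fibroblast gene, measured 13.6 and 16.2 RPM in wild type, 5.89 to 12.2 RPM in the knockout and 57.5 and 65.8 RPM at P7. The part of fibroblasts or feeder cells in the collagen difference was not tested.

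Cholesterol synthesis genes were higher at P7 for 15 of 23 and lower for 2, with a median of 0.76 (6 and 3, with 0.21, on ERCC totals), and against wild type higher for 9 and lower for 1. The counts against wild type in this paragraph stand beside 16% higher and 15% lower over all genes. Dhcr7, a late enzyme of the pathway, measured 25 and 18.2 RPM in wild type, 13.2 to 16.9 RPM in the knockout and 67.7 and 62.4 RPM at P7 (2.0 ± 0.19 above the knockout mean). The knockout was lower than wild type for 5 members, a count that was 0 without wild-type replicate 1, 1 without KO1 replicate 2, 2 without KO2 replicate 1 and 3 without KO1 replicate 1 or wild-type replicate 2. Beside these stand 24.1% higher and 18.5% lower at P7 than in the knockout mean over all genes. The share lower in the knockout than in wild type was 6.15%. Interferon response genes were not shifted against the knockout (3 of 15 higher, 3 lower, median 0.21, or 1 and 4 with -0.34 on ERCC totals) and were lower than in wild type for 6 and higher for 0, with a median of -0.94. Ifi27, an interferon-induced gene, departed from this: it measured 42.2 and 41.1 RPM in wild type, 4.41 and 4.89 RPM in KO1, 12.7 and 11.7 RPM in KO2 and 43.1 and 51.3 RPM at P7. The difference of P7 from wild type was 0.05 for Ifi27 (adjusted p = 0.892), while P7 was 2.59 ± 0.19 above the knockout mean.

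The largest differences between P7 and the knockout need the gene lists beside them. The 10 largest rises were Pabpn1, Adnp, Lbhd1, Rbm4, Cmtr1, Ddi2, Fkbp2, Scamp3, Tdrd9 and Xlr5c, and 8 of them stood at least 8-fold above all 5 other groups. Pabpn1, a nuclear poly(A)-binding protein gene that most cells use, measured 278 and 282 RPM at P7 and 0 in the other 10 libraries, and Adnp, a chromatin factor gene, measured 213 and 207 RPM against 0 in all 10. Such values move with the gene list, since wild-type, knockout and fetal libraries share one list and P7 another, and the annotation and the age cannot be told apart. Over all genes, 88 stood at least 8-fold above and 25 below all 5 other groups, after adding 0.5 RPM. Leaving these out changed the distance gap to 0.118 and the calls against the knockout mean to 6604.

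Among the 10 largest falls, 4 stood apart in the same way. Atp6v0a2, a proton pump subunit gene, measured 28.6 to 32.1 RPM in the knockout and 0 in both P7 libraries, and H2afz, the H2A.Z histone gene, 1100 to 1211 RPM in the knockout and 26 and 27.2 RPM at P7. The other 6 did not. Foxa2, an endoderm transcription factor gene, measured 4.63 and 6.23 RPM in wild type, 19.4 to 25.8 RPM in the knockout and 0 and 0.309 RPM at P7. The ratio of knockout to P7 for Foxa2, 140 with a counting interval of 24.9 to 5530, rests on 1 count. Foxa2 was 1.96 ± 0.32 higher in the knockout than in wild type, away from a P7 level near 0. Chrd, a BMP antagonist gene, measured 7.90 and 13.0 RPM in wild type, 26.4 to 29.4 RPM in the knockout and 0.658 and 0.618 RPM at P7, and Sall2, a zinc finger factor gene, 18.8 and 21.2, 34.1 to 45.6, and 0.329 and 1.86 RPM. The knockout rises of Chrd and Sall2 were lost without wild-type replicate 1.

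Of the 6734 genes called, 4338 (64.4%) had a fetal group, counted with the GSC list, nearer to P7 than to the knockout mean. Either fetal group sufficed, and the share over all genes tested was not worked out, so no excess can be read from it. Among the largest differences of called genes that met this rule was Topaz1, a germ cell gene. It measured 0.545 and 0.748 RPM in wild type, 1.47 and 0 RPM in KO1, 0 in both KO2 libraries and 72.0 and 59.3 RPM at P7 (8.40 ± 0.40 above the knockout mean). Dpep3, a dipeptidase gene of germ cells, was at 0 in all GSC libraries, 34.5 and 29.7 RPM at P7, at least 35.9-fold higher than in the knockout, and 169 and 148 RPM at embryonic day 16. Both were present in vivo at fetal and postnatal ages and near or at 0 in culture, a pattern that the rule that named them favours. Hbb-bs, adult beta-globin, was at 0 in the GSCs and 8.22 and 47.9 RPM at P7, in the order of the summed erythroid markers. Among the falls, Id3, a BMP target gene, was -2.80 ± 0.26 from the knockout mean and -0.97 from wild type. It was 1.84 higher in the knockout than in wild type.

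**Figure D5:**
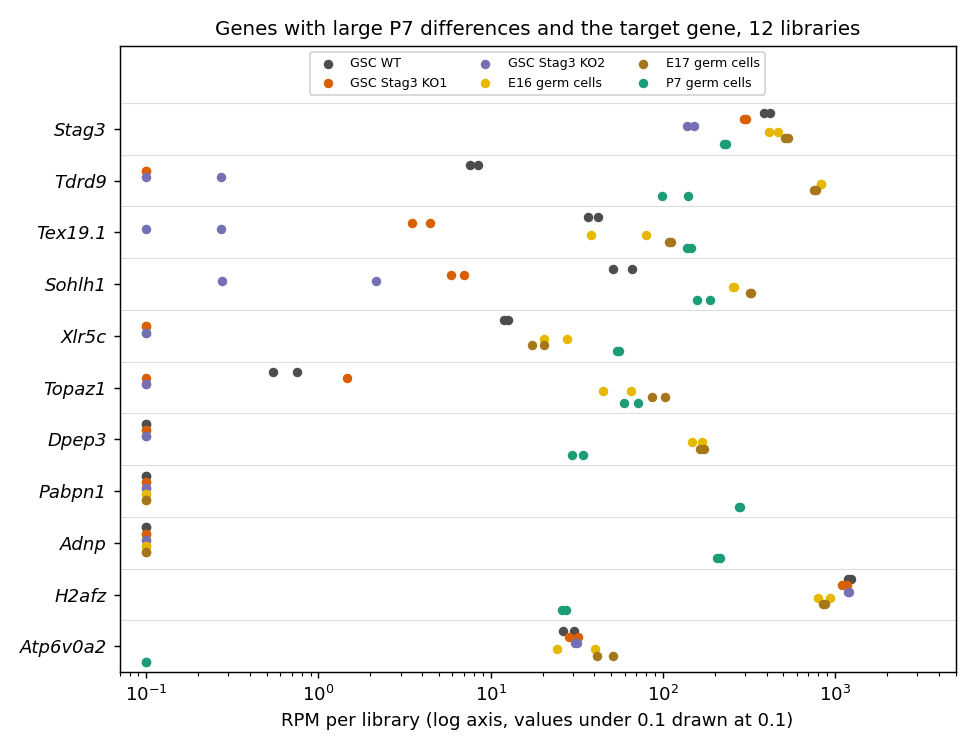
RPM in all 12 libraries (log axis, values under 0.1 RPM drawn at 0.1) for Stag3 and 10 genes with large differences between P7 and the knockout. Pabpn1 and Adnp are at 0 in every library that used the other gene list, while Topaz1 and Dpep3 are present in fetal and P7 germ cells and at or near 0 in GSCs.

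The 2 knockout lines differed little from each other beside their gap to P7. KO1 against KO2 called 39 genes (0.246%), 32 higher (0.202%) and 7 lower (0.0442%) in KO1, and 20, 21, 18 and 21 when each of the 4 knockout libraries was left out in turn. Where they did differ, the gap to P7 differed with them. KO1 retained more RNA of Stag3 (1.03 ± 0.11, edgeR adjusted p = 1.35e-07), Tex19.1 (4.48 ± 0.90, adjusted p = 0.00996), Sohlh1 (2.32 ± 0.49, adjusted p = 0.0154) and Kit (1.23 ± 0.27), and on the TMM scale lay nearer than KO2 to the P7 level for all 4. Rpl39l, the germline copy of a ribosomal protein gene, measured 323 and 318 RPM in wild type, 306 and 325 RPM in KO1, 185 and 177 RPM in KO2 and 736 and 751 RPM at P7, and KO1 exceeded KO2 by 0.78.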

How the data were processed

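Libraries were made by SC3-seq, which counts reads at the 3′ ends of transcripts, from 1 ng of total RNA (RNeasy Micro) that was reverse transcribed and amplified, per the labels' protocols. The submitters' processing notes name Salmon 1.4.0, cutadapt 1.18, TopHat2 2.1.1, HTSeq 0.9.1 and the build GRCm38.p6. Their roles and the strand setting are not stated there. The authors deposited whole read counts per gene, which were used here, and a column of reads scaled to library size (treated as a score), which was not used.

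Genes were joined by Entrez ID: 31685 were in both gene lists, 31675 were used, 10 were left out as blank in at least 1 library, and 3967 and 3211 were in 1 list only. Symbols differed at P7 for 4299, and 31640 had a RefSeq entry. ERCC and other spike-in rows, transgene rows and mitochondrially encoded genes were left out of library sizes and tests. All 12 libraries were fitted in R 4.3.3 with edgeR 4.0.16 (limma 3.58.1): TMM, filterByExpr by group, 1 coefficient per group, quasi-likelihood F test with Benjamini-Hochberg adjustment. Groups came from the labels. SE is the fold change divided by the square root of F. Residual degrees of freedom were 6 and the common coefficient of biological variation 0.107. DESeq2 1.42.0 served as an alternative, and the others were scalings, filters, 8 libraries, a replicate block and leaving out each library. For a ratio with a side of 1 to 3 counts, the interval is an exact counting interval at 95%. For a side at 0 the bound takes 3 counts in each of the group's libraries, as a mean in RPM. Both cover counting error only.

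On simulated counts for 11652 genes in P7 against the knockout mean, 97 of 100 genes changed by a log2 fold of 1 and 100 of 100 changed by 2 were called, with 2 false calls. Changed genes were drawn from well-counted genes, all others had the same level in every group, and a single fixed spread was used. These rates do not cover genes with few counts or data in which many genes change. Replicates of every group differed by more than counting noise (chi-square per degree of freedom 1.53 to 6.469), so none were merged. Same-numbered libraries did not deviate together (correlations -0.034 to 0.029 across genes) and were not paired. Replicate numbers follow the sample titles. The names of the deposited wild-type tables carry the opposite numbers, so the wild-type replicate left out, the pairing check and the replicate block rest on the titles.

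The comparison, its members and the gene lists were chosen with earlier results of these data known. Genes were named by rule: the 10 largest rises and falls at P7 among called genes with no overlap and a mean of at least 20 RPM in the higher side; the 10 largest knockout changes of at least 1 log2 unit with, and the 10 against, the sign of P7 minus wild type, called in both with wild type and knockout not overlapping; Stag3, the cohesin, undifferentiated and differentiating members, and up to 4 per direction of other lists. Predicted genes, Rik clones, mitochondrial and ribosomal protein names were left out of the first rules. A rule added after seeing the data named the 20 largest rises and falls with a fetal group nearer to P7 than to the knockout mean.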

Additional observations from a re-analysis of the deposited data

Results flagged for a closer look

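The tests of KO1 against KO2, which compare the gap to P7 between the lines, set apart 10 of the named genes. KO1 exceeded KO2 by 1.23 for Kit, 4.48 for Tex19.1, 2.32 for Sohlh1, 1.03 for Stag3, 1.02 for S100a6, 1.53 for the keratin gene Krt18, 3.73 for the smooth muscle actin gene Acta2, 0.54 for Rpl10l and 0.78 for Rpl39l on the log2 scale, and fell below it for Ifi27 (-1.41). Rpl10l and Rpl39l are germline copies of ribosomal protein genes.

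Transgene rows, which entered no comparison, carried reads. The row of the polyadenylation signal named RBG_pA_01 had a mean of 271 RPM in wild-type GSCs, 106 in KO1 and 58.0 in KO2 (SD 9.63, 9.0 and 11.9, n = 2 each) and 0 at P7 and in fetal germ cells. The BGH_pA row had 38.1 RPM at P7, 24.4 and 21.9 at embryonic days 16 and 17, and 0, 0.147 and 0 in wild type, KO1 and KO2. The EF1a_pA row had 44.6 RPM at P7 (SD 7.14), 41.7 in wild type (SD 10.8), 22.3 in KO1 and 24.8 in KO2. Which constructs these rows stand for was not worked out.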

How the results depend on the processing

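Every knockout library lay farther from P7 than both wild-type libraries in every alternative run, ERCC totals (0.091), DESeq2 size factors (0.11) and 8 libraries (0.126), all chosen after seeing the data, included. The gap ran from 0.07 to 0.131 over these alternatives, and of 0.101 to 0.122 when a GSC or P7 library was left out. Counting only log2 fold changes of at least 1 left 3397 genes against the knockout mean, 3000 against KO1, 3115 against KO2, 2426 against wild type and 608 for knockout against wild type. The last count was 2196 in a fit of the 8 GSC and P7 libraries and 656 with ERCC totals, and KO1 against KO2 gave 77 with 8 libraries. Leaving out 1 library gave 4815 to 6867 genes against the knockout mean, 3790 to 5634 against KO1, 4101 to 5880 against KO2, 3200 to 4742 against wild type, 608 to 1291 for knockout against wild type and 18 to 41 for KO1 against KO2.

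ERCC totals turned 12 of the named P7 differences from the knockout mean to values of -0.46 for Stag3, -0.43 for Rad21, -0.52 for Gfra1, -0.03 for Ret, -0.24 for Dmrt1, -0.29 for Cdk4, -0.27 for Mcm6, -0.11 for Aldh18a1, -0.09 for Pdk1, -0.07 for Macroh2a1, -0.29 for H3f3b and -0.28 for Cox7a2l, and ended 74 calls over the named genes. Myh11 ran from -0.53 without P7 replicate 2 to 3.58. DESeq2 ended 31 such calls, library totals 17, no filter 10, DESeq2 size factors 5 and a filter of 10 CPM 5. The causes were not tested.

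With the replicate number as a block, whose libraries do not deviate together, the counts were 6677, 5558, 5744, 4879, 1471 and 43, and 5 named calls were lost and 3 gained. List counts of P7 against wild type were not recomputed under the alternatives. Depth limits genes below about 1 RPM, where 3 counts are the floor. The comparison rests on 2 P7 libraries counted with their own gene list, on reporter alleles that differ from those of the GSCs, and on markers of somatic cells that were present at P7.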

Other observations

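Imprinted genes and other lists not described above also held genes that differed between P7 and the knockout. Each list count below, that of glycolysis genes included, stands beside 24.1% higher and 18.5% lower over all genes. Of 24 tested imprinted genes, 9 were higher and 6 lower at P7 than in the knockout mean, with a median of 0.11 beside 0.07 over all genes (7 and 10, with -0.44, on ERCC totals). Phlda2, a placental growth regulator, measured 11.2 and 11.2 RPM in wild type, 1.05 to 3.61 RPM in the knockout and 35.2 and 33.1 RPM at P7 (4.05 ± 0.31 above the knockout mean), the order of the genes that the knockout moved away from P7. Meg3, a maternally expressed non-coding RNA, was 3.95 higher at P7, and Nnat, a paternally expressed membrane protein gene, was lower by -3.30. Of 17 immediate early genes, 9 were higher and 4 lower at P7, with a median of 0.89 (6 and 4, with 0.35, on ERCC totals). Of 26 TGF-beta, activin and BMP pathway genes, 11 were higher and 4 lower, with a median of 0.54, but 5 were higher without P7 replicate 1 and 4 higher and 5 lower with ERCC totals, with a median of -0.02. Of 13 p53 target genes, 3 were higher and 6 lower, with a median of -0.72 (1 and 8, with -1.24, on ERCC totals). Retinoic acid response genes were 4 higher and 3 lower of 14, with a median of 0.04, and 5 lower without P7 replicate 2 or with ERCC totals, where the median was -0.51.

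Glycolysis genes split, with 10 higher and 8 lower of 20 and a median of 0.12 (3 and 8, with -0.41, on ERCC totals). The glucose transporter gene Slc2a1 was 1.80 above the knockout mean and the hexokinase gene Hk2 was 2.09 above it, while the lactate dehydrogenase gene Ldha was -1.55 from it. Myc, the growth regulator, measured 1.63 and 1.74 RPM in wild type, 7.33 to 15.3 RPM in the knockout and 0 in both P7 libraries.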
